A study of Mus musculus with 9 samples.

Results

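The genes described here are 10 that encode neural cell surface adhesion molecules or membrane proteins that work beside them: Ncam1, Nrcam, L1cam, Chl1, Cdh2, Cadm1, Alcam, Adam23, Adgrg1 and Prom1. Their members on the array were every probe set that the platform annotation pairs with exactly 1 gene symbol from this list. All 10 genes were measured, on 22 of the 22626 probe sets tested, out of 12393 genes that have a probe set of their own. The list was selected on the overexpressed over wildtype contrast: fold changes of Adam23, Adgrg1, Prom1 and Nrcam in it were known when the genes were chosen. The members' values in that contrast are therefore a description with no test. The overexpressed over knockdown contrast uses the same overexpressed arrays and is treated the same way. Where member probe sets past the array-wide threshold are counted in these 2 contrasts, the count describes them beside all probe sets and supports nothing. The knockdown over wildtype contrast is tested, and it shares the 3 wildtype arrays with the first.

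Total RNA of N1E-115, a mouse neuroblastoma line, was measured on 9 arrays. The labels divide them into overexpressed, wildtype and knockdown Tcof1, with 3 arrays in each group, lettered A, B and C, and all cells are of the 1 line. The gene's product, treacle, works in the nucleolus, where ribosomal RNA is made, and the design asks how its raised and lowered levels change other transcripts. Neither the means of raising and lowering Tcof1, nor clonality, nor what the letters stand for is stated in the labels, so p-values reflect the spread among arrays alone, and that spread may be technical.

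Cell adhesion molecules sit in the plasma membrane and bind a partner on the next cell or in the matrix. Ncam1, Nrcam, L1cam, Chl1, Cadm1 and Alcam belong to the immunoglobulin superfamily, which acts in axon growth, fasciculation and synapse formation. Cdh2 is a classical cadherin that binds its like in the presence of calcium and is tied to actin through catenins, while Adam23, Adgrg1 and Prom1 are membrane proteins of other families that are present on neural or progenitor cells.

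The arrays were alike in scale, with medians between 164.1 and 185.95 intensity units. Log2 values correlated at 0.973 to 0.978 within groups and at 0.956 to 0.978 between groups. Of the 3 Tcof1 probe sets, 1 was called higher in overexpressing than in wildtype cells (log2 fold change 0.87 ± 0.21 SE, limma adjusted p = 0.0241) and 0 were called in knockdown over wildtype (-0.40 ± 0.20 to 0.06 ± 0.17, adjusted p = 0.51 to 0.934). Tcof1 thus gives no check of the knockdown label against wildtype. Of the 15 markers of sympathoadrenal neurons and neuroblastoma in the list, 13 were measured and all 13 were brighter than the median probe set. The other lists held few bright genes: 1 of 8 fibroblast, 2 of 5 Schwann cell and glia, 1 of 6 blood and immune, and 1 of 5 epithelial markers were above that median.

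The genes that were lowest in the overexpressing cells had unlike sequence just upstream of their starts, so the 250 bases before the start are printed for the first listed start of each. They are RefSeq sequence of build GRCm38.p6, written 5′ to 3′ on the gene's strand in lower case, and capitals mark each CG dinucleotide. They were matched by symbol, and 7 of the 10 genes had a window that was used. No window of Ncam1, Cdh2 or Cadm1 was searched. Adam23 (chr1:63445641-63445890, plus strand) and Nrcam (chr12:44328635-44328884, plus strand) are followed by Prom1 (chr5:44101737-44101986, minus strand) and Adgrg1 (chr8:94976859-94977108, plus strand).
Adam23: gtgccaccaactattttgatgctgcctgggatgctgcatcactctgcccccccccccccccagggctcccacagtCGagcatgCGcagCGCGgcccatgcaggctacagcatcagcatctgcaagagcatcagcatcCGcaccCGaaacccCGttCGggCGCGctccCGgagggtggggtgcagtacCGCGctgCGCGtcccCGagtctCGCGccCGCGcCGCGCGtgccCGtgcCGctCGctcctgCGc
Nrcam: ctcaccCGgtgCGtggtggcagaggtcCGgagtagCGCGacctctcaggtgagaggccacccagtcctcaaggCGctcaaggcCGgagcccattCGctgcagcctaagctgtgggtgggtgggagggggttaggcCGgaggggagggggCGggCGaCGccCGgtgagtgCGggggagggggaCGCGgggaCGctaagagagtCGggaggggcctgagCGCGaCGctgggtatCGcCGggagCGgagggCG
Prom1: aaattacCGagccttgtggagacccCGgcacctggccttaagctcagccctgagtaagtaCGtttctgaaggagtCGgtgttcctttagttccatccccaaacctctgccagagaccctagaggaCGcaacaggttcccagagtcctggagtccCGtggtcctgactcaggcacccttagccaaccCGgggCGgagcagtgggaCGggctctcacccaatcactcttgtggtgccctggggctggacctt
Adgrg1: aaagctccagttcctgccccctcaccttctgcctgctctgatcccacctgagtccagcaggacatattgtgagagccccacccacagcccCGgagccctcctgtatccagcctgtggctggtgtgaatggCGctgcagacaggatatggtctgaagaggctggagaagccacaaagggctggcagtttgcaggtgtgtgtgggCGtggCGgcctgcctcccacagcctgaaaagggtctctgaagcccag
The Adam23 window held 27 CG dinucleotides and the Nrcam window 25, against 9 for Prom1 and 4 for Adgrg1. A second start of Prom1 had 3 and a second start of Adgrg1 had 4. Over all 32851 windows of this length the median was 6, and 37.8% held 10 or more. The other members with a window lay within this range, with 22 for Alcam, 20 and 12 for the windows of L1cam, and 8 for Chl1. On either strand, the GC box GGGCGG was found once in the Nrcam window, once in the first Prom1 window, once in each L1cam window and 2 times in the Alcam window, and was not found in those of Adam23, Adgrg1 and Chl1. It was in 32.7% of all windows. The E-box CACGTG was in 6.02% of all windows. The hypoxia response element core ACGTG, which lies inside that E-box, was in 16.6% of all windows. Neither was found in the windows of the 7 genes searched. These are matches of letters and not sites of binding.

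Adam23, Prom1 and Adgrg1, 3 members outside the immunoglobulin and cadherin families, were far lower in the overexpressing cells than in either other group. Adam23 encodes a member of the ADAM family that lacks protease activity and binds integrins and the secreted protein Lgi1. Its probe set 1423378_at read 26.3, 37.7 and 39.0 on the overexpressed arrays A, B and C, 252.2, 347.6 and 280.2 on the wildtype arrays, and 308.2, 206.9 and 255.5 on the knockdown arrays. The 3 overexpressed arrays were all below every other array, while wildtype and knockdown overlapped. The means were 34.3 ± 6.99 (SD, n = 3), 293.3 ± 49.0 and 256.9 ± 50.7 in that order. On the log2(intensity + 16) scale, Adam23 was lower by 6.14-fold in overexpressing than in wildtype cells (log2 fold change -2.62 ± 0.22 SE) and by 5.40-fold than in knockdown cells (-2.43 ± 0.22). Because the overexpressed arrays read close to the added 16 units, the size depends on that constant: across the alternatives the first value lay between -3.07 and -1.86, and the second between -2.87 and -1.70.

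Prom1 encodes prominin-1 (CD133), a pentaspan membrane protein of plasma membrane protrusions and a known marker of neural progenitors. It read 121.1, 149.4 and 127.8 on the overexpressed arrays, 718.9, 713.2 and 637.1 on the wildtype arrays, and 672.4, 602.0 and 671.3 on the knockdown arrays (probe set 1419700_a_at). The overexpressed arrays lay below all 6 others, and the other groups overlapped. The group means were 132.8 ± 14.8, 689.7 ± 45.7 and 648.6 ± 40.3 (SD, n = 3), which gave log2 fold changes of -2.25 ± 0.13 against wildtype (4.75-fold lower) and -2.16 ± 0.13 against knockdown (4.48-fold lower).

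Adgrg1 encodes an adhesion G protein-coupled receptor, also known as Gpr56, that binds collagen and transglutaminase and acts in cortical development. It had 2 probe sets. Probe set 1433485_x_at, of a type whose probes can match other transcripts, read 21.7, 44.6 and 92.9 on the overexpressed arrays, 381.8, 365.9 and 271.6 on the wildtype arrays, and 270.0, 184.1 and 205.5 on the knockdown arrays. All 3 groups were apart on it, with knockdown between the others. Probe set 1421118_a_at read 66.8, 53.5 and 85.1, then 257.1, 221.7 and 149.6, then 150.5, 148.4 and 143.1 in the same order. There the overexpressed arrays were again the lowest 3, and 1 wildtype array fell among the knockdown arrays. Both probe sets were lower in overexpressing than in wildtype cells, by -2.49 ± 0.34 (5.60-fold) and -1.40 ± 0.24 (2.64-fold). Against knockdown they were lower by -1.89 ± 0.34 (3.71-fold) and -0.97 ± 0.24 (1.96-fold), and with 1 array left out the second of these lay between -1.11 and -0.84. The size for 1433485_x_at, whose lowest overexpressed array read 21.7, depends on the added constant as well: against wildtype it lay between -2.88 and -1.82 across the alternatives. In knockdown over wildtype, neither probe set passed: -0.60 ± 0.34 (95% confidence interval -1.35 to 0.16, adjusted p = 0.566) and -0.43 ± 0.24 (-0.97 to 0.10, adjusted p = 0.548).

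**Figure D1:**
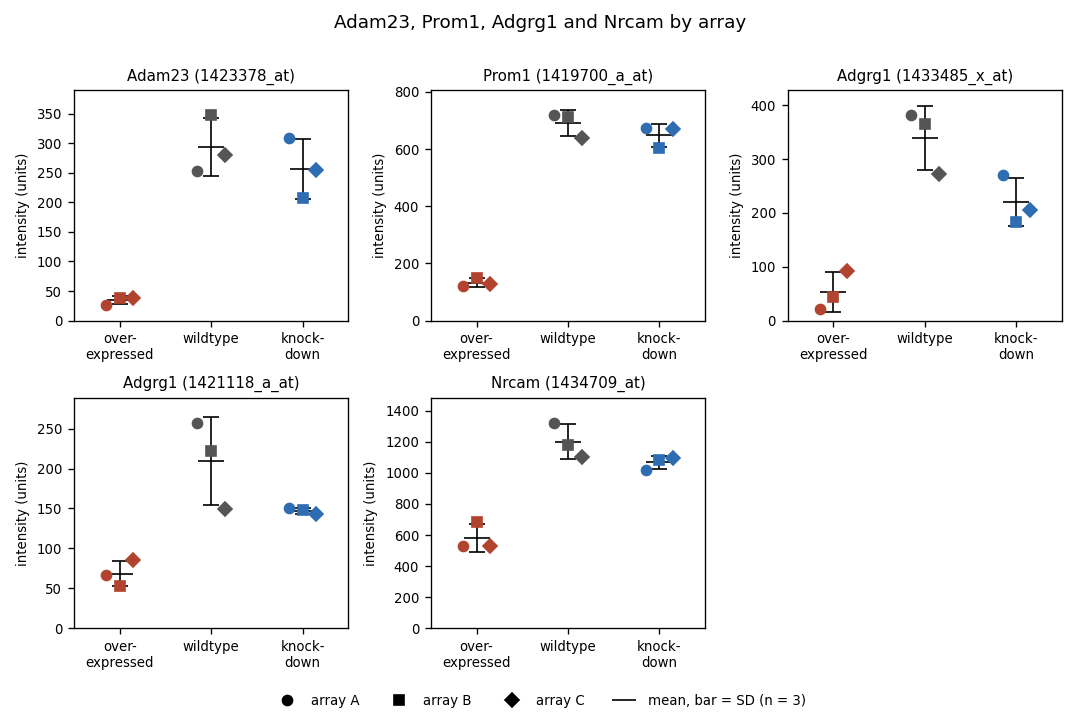
Deposited intensity (vertical axis, intensity units from 0) of the probe sets of Adam23, Prom1, Adgrg1 and Nrcam, by group (horizontal axis); points are arrays A, B and C and bars the mean ± SD of 3 arrays. On each of the 5 panels the 3 overexpressed arrays lie below all 6 others, at 26.3 to 39.0 for Adam23 and 121.1 to 149.4 for Prom1.

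Within the L1 family, which comprises Nrcam, L1cam and Chl1 here, Nrcam was lower in the overexpressing cells, L1cam was lower by less, and Chl1 was too dim to compare. These proteins bind ankyrin through their cytoplasmic tails and act in axon outgrowth and guidance. Nrcam, which also acts in clustering sodium channels at nodes of Ranvier, read 531.2, 685.4 and 527.9 on the overexpressed arrays, 1321.5, 1178.3 and 1103.1 on the wildtype arrays, and 1019.4, 1084.8 and 1098.2 on the knockdown arrays (probe set 1434709_at). Every overexpressed array was below every other array, and every knockdown array was just below every wildtype array. The overexpressed mean of 581.5 ± 90.0 against 1201 ± 111 in wildtype (SD, n = 3) was 2.05-fold lower (-1.03 ± 0.12), and against 1067 ± 42.2 in knockdown it was 1.83-fold lower (-0.87 ± 0.12). The knockdown and wildtype levels did not pass the test (-0.16 ± 0.12, 95% confidence interval -0.43 to 0.10, adjusted p = 0.652).

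L1cam, the founder of the family, was among the brighter members. Its probe set 1450435_at read 1749.8, 1822.4 and 2031.3 on the overexpressed arrays, 2754.7, 2388.0 and 2452.7 on the wildtype arrays, and 1984.6, 2694.5 and 2033.8 on the knockdown arrays. The overexpressed and wildtype arrays were apart, and the knockdown arrays overlapped both. Overexpressed over wildtype was -0.44 ± 0.12, 1.35-fold lower. With 1 array left out it lay between -0.50 and -0.37. The second probe set, 1421958_at, read 351.9 ± 57.6, 476.1 ± 82.7 and 406.7 ± 76.3 in overexpressing, wildtype and knockdown cells, with overlapping groups and an overexpressed over wildtype value of -0.42 ± 0.18. In knockdown over wildtype the L1cam probe sets gave -0.19 ± 0.12 (adjusted p = 0.616) and -0.22 ± 0.18 (adjusted p = 0.700). Chl1, the close homolog of L1, read between 3.0 and 34.7 on all 9 arrays, at brightness percentile 12.6 of all probe sets. Its groups overlapped, and knockdown over wildtype had a wide interval of -0.37 to 1.32 around 0.47 (adjusted p = 0.698).

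Ncam1, the neural cell adhesion molecule that can carry polysialic acid, was bright and close to level across the groups. It had 6 probe sets. The brightest, 1426865_a_at, read 1599.6, 1657.5 and 1421.4 on the overexpressed arrays, 1413.6, 1631.0 and 1544.4 on the wildtype arrays, and 1562.0, 1369.9 and 1515.0 on the knockdown arrays. The 3 groups overlapped. Overexpressed over wildtype was 0.03 ± 0.10 (95% confidence interval -0.18 to 0.24), and knockdown over wildtype was -0.04 ± 0.10 (-0.26 to 0.17, adjusted p = 0.906). Probe set 1426864_a_at had means of 1533 ± 219, 1496 ± 246 and 1332 ± 61.8 and a knockdown over wildtype value of -0.15 ± 0.13 (adjusted p = 0.727). Probe set 1450437_a_at read 304.3, 280.0 and 367.0 on the knockdown arrays and 347.2, 371.3 and 385.6 on the wildtype arrays, a difference of -0.21 ± 0.13 that did not pass (adjusted p = 0.602). On the same probe set the overexpressed arrays (368.5, 368.1 and 397.7) lay just above all knockdown arrays, a difference of 0.25 ± 0.13. On 1425126_at the overexpressed arrays (153.2, 189.3 and 170.0) lay above all wildtype arrays (126.8, 121.6 and 144.9), with a value of 0.34 ± 0.20. The remaining probe sets, 1450438_at and 1421966_at, were at brightness percentiles 18.2 and 5.7 and read at most 76.2 and 13.0.

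**Figure D2:**
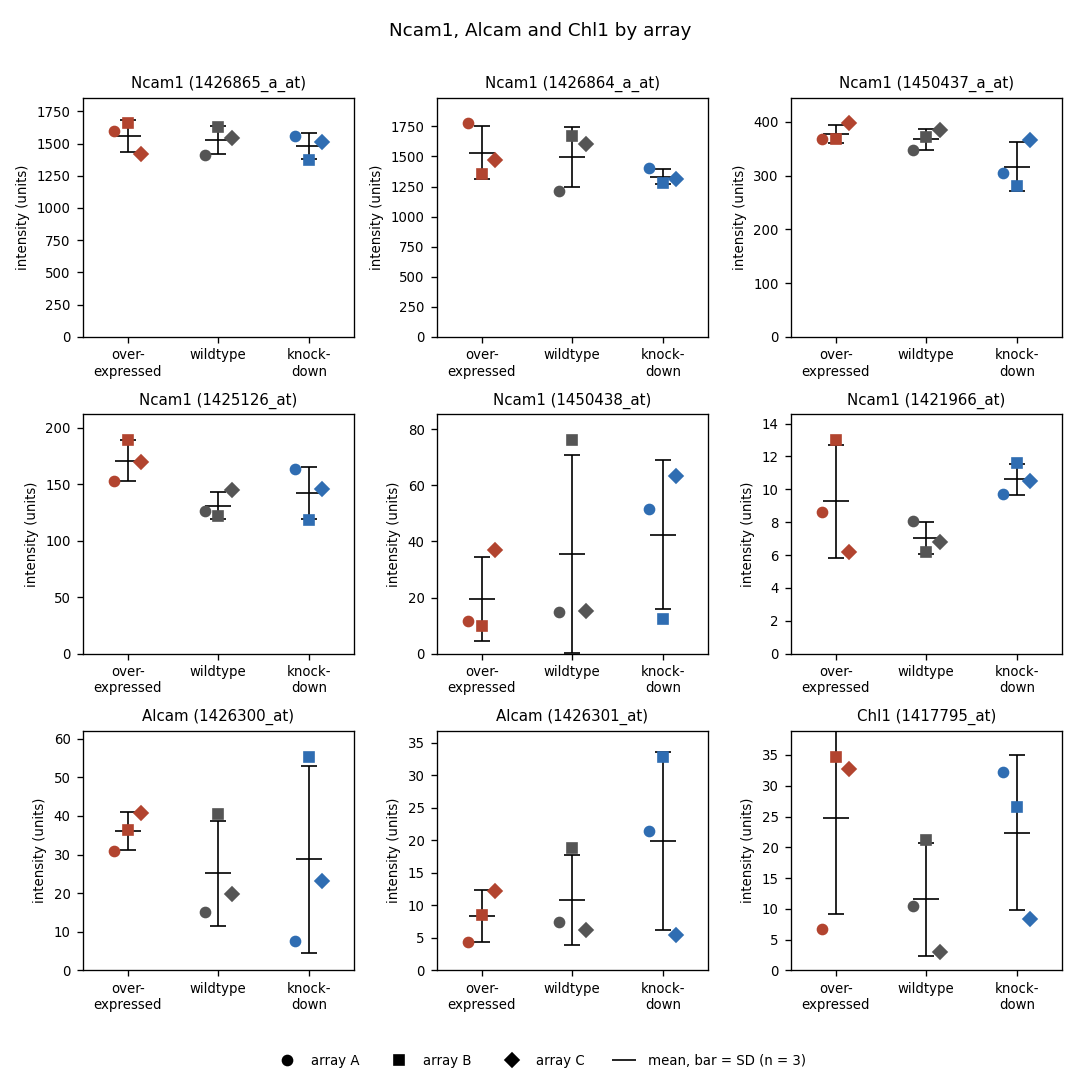
Deposited intensity (vertical axis, intensity units from 0) of the 6 Ncam1, 2 Alcam and 1 Chl1 probe sets by group; points are arrays A, B and C and bars the mean ± SD of 3 arrays. The groups overlap on the panels of 1426865_a_at and 1426864_a_at, the brightest Ncam1 probe sets, and the Alcam and Chl1 panels span at most 55.3 and 34.7 units.

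Cdh2, N-cadherin, had its highest mean in wildtype cells on both of its probe sets, and neither passed the test in knockdown over wildtype. Probe set 1449244_at read 174.1, 193.7 and 243.5 on the overexpressed arrays, 272.8, 255.0 and 188.2 on the wildtype arrays, and 179.2, 187.9 and 128.9 on the knockdown arrays. The knockdown arrays lay just under the wildtype arrays, and the overexpressed arrays overlapped both. The other probe set, 1418815_at, read 80.3, 85.2 and 69.9, then 169.1, 116.5 and 141.8, then 81.4, 99.4 and 82.3 in the same order. On it the wildtype arrays were the highest 3, and the overexpressed and knockdown arrays overlapped. Its overexpressed over wildtype value was -0.74 ± 0.22, 1.67-fold lower, and that of 1449244_at was -0.21 ± 0.21. Knockdown over wildtype gave -0.49 ± 0.21 (95% confidence interval -0.96 to -0.02, adjusted p = 0.442) for 1449244_at and -0.60 ± 0.22 (-1.09 to -0.12, adjusted p = 0.357) for 1418815_at. These were the 2 smallest adjusted p-values of the members in that contrast.

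Cadm1, a nectin-like molecule of synapses and epithelia also called SynCAM1, had 4 bright probe sets, all with lower means in overexpressing than in wildtype cells. Probe set 1431611_a_at read 820.2, 575.6 and 717.7 on the overexpressed arrays, 1070.6, 972.4 and 1006.6 on the wildtype arrays, and 893.5, 809.6 and 1099.1 on the knockdown arrays. The overexpressed arrays lay below the wildtype arrays and 1 of them fell among the knockdown arrays. Overexpressed over wildtype was -0.53 ± 0.14, 1.45-fold lower. With 1 array left out it lay between -0.65 and -0.40. The brightest, 1417378_at, read 1633 ± 55.4, 1919 ± 172 and 1972 ± 254 in overexpressing, wildtype and knockdown cells, with all overexpressed arrays below the rest and an overexpressed over wildtype value of -0.23 ± 0.11. Probe sets 1417376_a_at and 1417377_at gave -0.19 ± 0.09 and -0.15 ± 0.12. In knockdown over wildtype, the 4 values ran from -0.13 ± 0.14 to 0.04 ± 0.11 (adjusted p = 0.795 to 0.955). Alcam, the activated leukocyte cell adhesion molecule that guides axons in development, was dim: 1426300_at read 7.7 to 55.3 and 1426301_at 4.3 to 32.8 over the 9 arrays, at brightness percentiles 18.5 and 8.3. Its knockdown over wildtype values of 0.02 ± 0.38 and 0.37 ± 0.31 had intervals of -0.81 to 0.86 and -0.30 to 1.05.

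**Figure D3:**
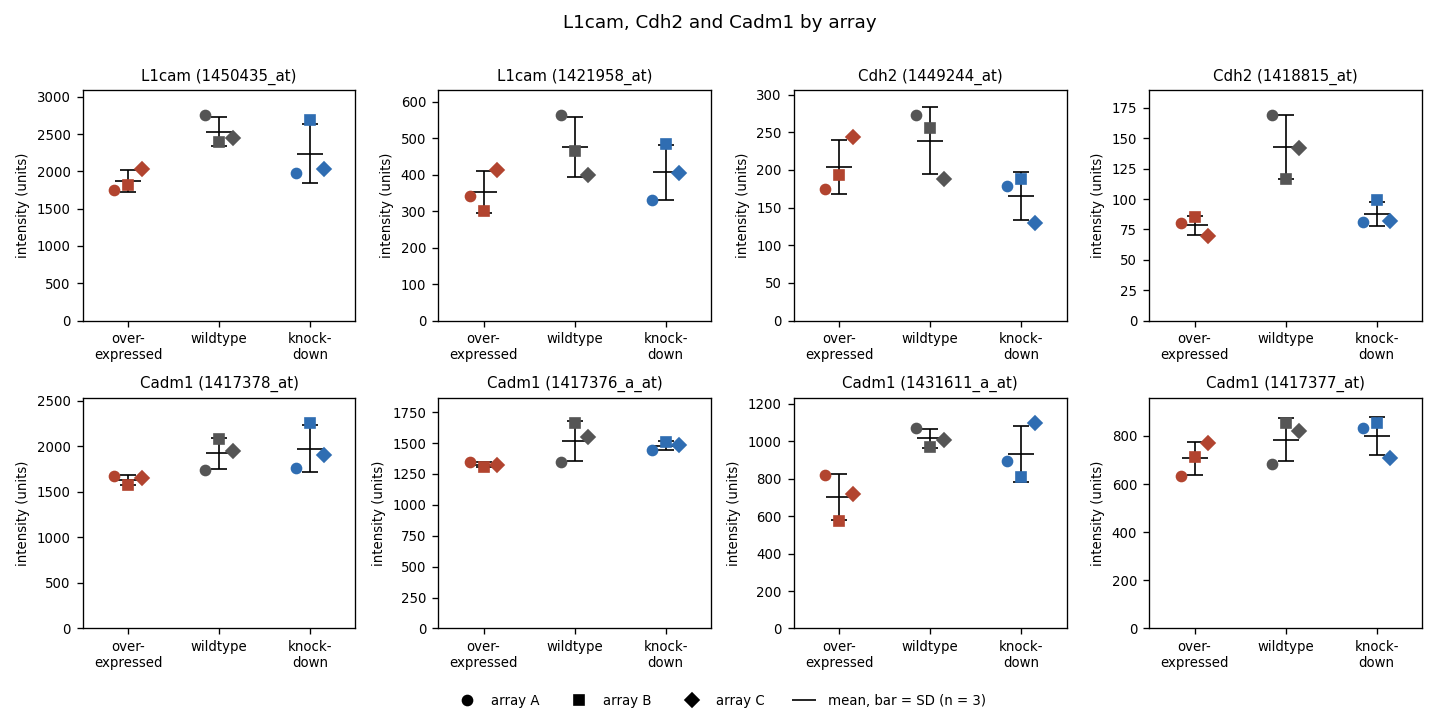
Deposited intensity (vertical axis, intensity units from 0) of the 2 L1cam, 2 Cdh2 and 4 Cadm1 probe sets by group; points are arrays A, B and C and bars the mean ± SD of 3 arrays. Wildtype arrays are highest for Cdh2 1418815_at (116.5 to 169.1), and the overexpressed arrays are lowest for Cadm1 1417378_at (1569.9 to 1674.0).

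Counted over probe sets, 7 of the 22 members were past the array-wide threshold and lower in overexpressing than in wildtype cells, and 0 were higher, where 5.07% and 4.52% of all probe sets were lower and higher. The 7 belong to Adam23, Prom1, Adgrg1 (2 probe sets), Nrcam, L1cam and Cadm1. The last 2 are near the threshold: they were past it in 3 and 6 of 14 alternatives, and Cdh2 1418815_at, not among the 7, in 2 of 13. Of the 22, 10 had groups that did not overlap, against 27.8% of all probe sets. Since this contrast helped to choose the genes, nothing is read from those counts and shares. The members' median was -0.22, beside -0.02 for all probe sets. In overexpressed over knockdown, 5 of 22 were past the threshold and lower and 0 higher (4.14% and 3.43% of all probe sets), from Adam23, Prom1, Adgrg1 and Nrcam, and 8 of 22 did not overlap (28.1% of all probe sets). Of the 22, 16 were above the 40th percentile of brightness, and the 7 were among these 16.

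In knockdown over wildtype, limma called 0 of the 22 members, with adjusted p-values from 0.357 to 0.986, and 0.0133% of all probe sets. At an unadjusted p under 0.05, 2 of 22 passed, both of Cdh2, beside 10.9% of all probe sets. The groups did not overlap for 5 of 22 members, beside 15.6% of all probe sets. These were the 2 of Cdh2, 1 of Adgrg1 and the Nrcam probe set, all lower in knockdown cells, and the dim Ncam1 1421966_at, which was higher. The members' median was -0.11 and that of all probe sets 0.03. Genes chosen as low against these wildtype arrays can read low here too, so nothing is read from that median or from the non-overlaps. For Prom1 the difference was -0.09 ± 0.13 (95% confidence interval -0.36 to 0.19, adjusted p = 0.852), and for Adam23 it was -0.19 ± 0.22 (-0.68 to 0.31, adjusted p = 0.815). These intervals leave room for a change in knockdown cells. The overexpressed over wildtype values of these genes, known when they were chosen, are not tested against them.

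**Figure D4:**
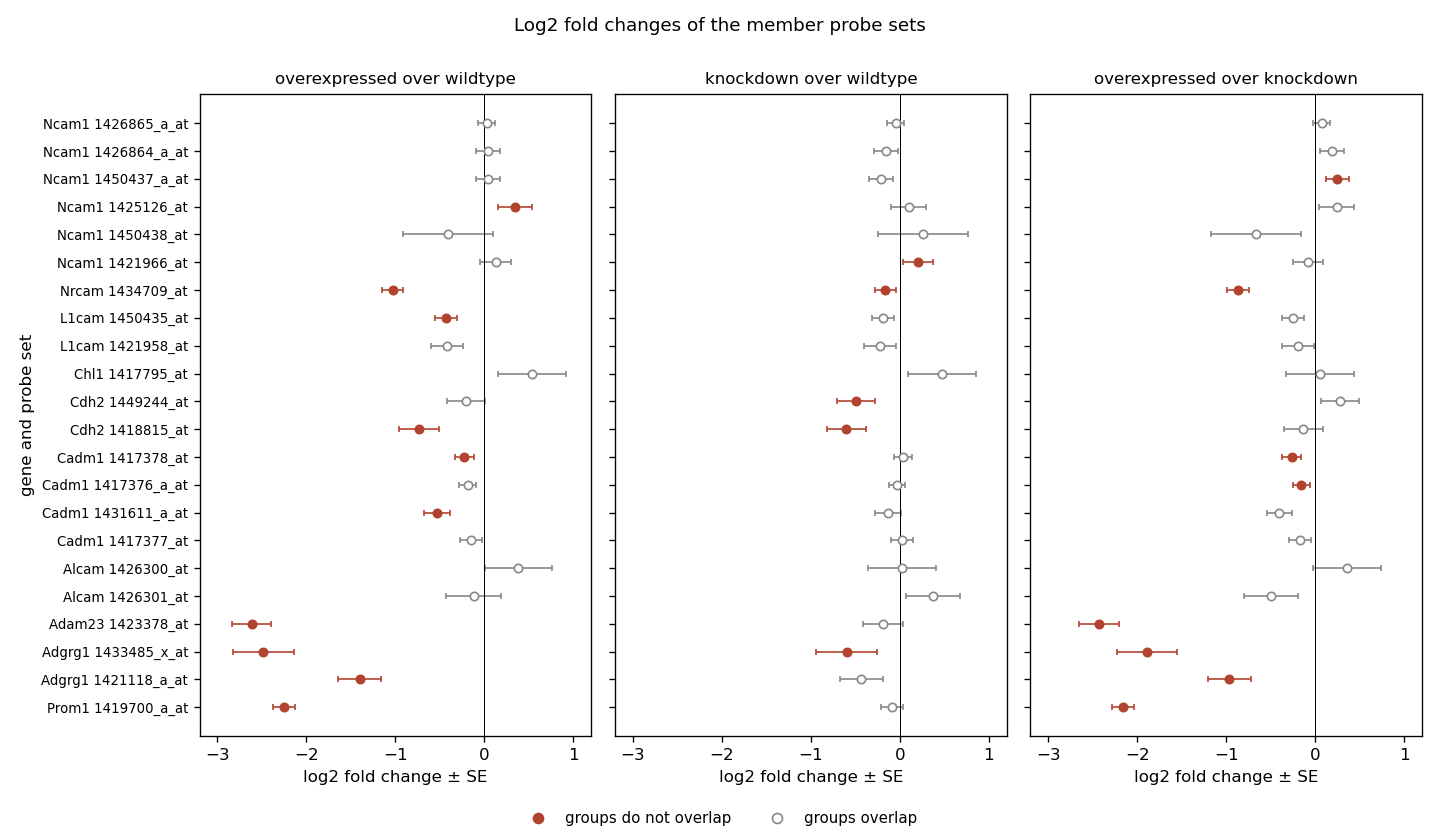
Log2 fold change ± SE (horizontal axis) of the 22 member probe sets (vertical axis) in the 3 contrasts; filled points are probe sets whose groups of 3 arrays do not overlap. Filled points appear at 10 probe sets for overexpressed over wildtype, 5 for knockdown over wildtype and 8 for overexpressed over knockdown.

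In overexpressed over wildtype, several neuronal markers were called, and 1 marker each of the blood, glia and fibroblast lists. Signs were mixed within each list. The summed intensity of the 13 neuronal markers was 35014.6 to 38052.9 on the overexpressed arrays, 42562.9 to 45228.8 on the wildtype arrays and 43858 to 48170.9 on the knockdown arrays. Such a sum weighs its brightest genes most, here Uchl1, Stmn2 and Gap43, with wildtype means of 8613, 7938 and 5941. In overexpressed over wildtype, 5 of the 13 were called lower and 2 higher, beside 5.07% and 4.52% of all probe sets. The lower ones included the neuron-specific enolase Eno2 (-1.84) and acetylcholinesterase Ache (-1.40). The higher ones were the transcription factor Isl1 (0.99) and the noradrenaline-producing enzyme Dbh (0.60), while Gata3 (0.97) did not pass. The 6 blood and immune markers summed to 616.6 to 717.3, 1196.1 to 1267.6 and 1037.4 to 1044.5 in overexpressing, wildtype and knockdown arrays. Among them 1 was called lower, the invariant chain Cd74 (-1.28), with means of 373.2, 928.3 and 791.7 in that order. Hba-a1 of the same list had a positive value that did not pass (1.19, limma adjusted p = 0.064). The leukocyte marker Ptprc had means of 17.6, 22.7 and 16.9. The 5 Schwann cell and glia markers summed to 588.7 to 745.7, 866 to 977.1 and 768.3 to 936, with Erbb3 lower (-0.71). The 8 fibroblast markers summed to 500.1 to 623, 560.4 to 787.3 and 728.6 to 836.2, with Pdgfrb lower (-2.01). Of the rest, Col1a2, Col3a1 and Pdgfra had positive values, Col1a1, Dcn, Lum and Thy1 negative ones, and none passed. None of the 5 epithelial markers was called (250.2 to 411.1, 298.7 to 359.8 and 240.6 to 410.5). Their part in the members' values was not tested. In bulk RNA, fewer cells that express a gene and less of its RNA per cell cannot be told apart.

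Genes related to the members were listed in 7 groups with 121 entries, of which 96 were measured, each by its brightest probe set. The lists were drawn up with earlier results of these data known, so the adjusted p-values of their genes are not independent evidence. In overexpressed over wildtype, 4 were called higher (4.17%, beside 4.52% of all probe sets) and 3 lower (3.12%, beside 5.07%), and the median was -0.03. In knockdown over wildtype 0 were called, beside 0.0133% of all probe sets, and the median was 0.07. In overexpressed over knockdown 2 were called higher (2.08%, beside 3.43% of all probe sets) and 3 lower (3.12%, beside 4.14%). These shares were near or below those of all probe sets, so nothing about the relatives is read from them. The single lists are smaller still, and nothing is read from the count of calls in any of them.

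Among the 12 measured relatives of the L1 and NCAM families, 1 was called: Cntn3, a contactin anchored to the membrane by a lipid, was lower in overexpressing cells. It read 470.3, 407.6 and 470.2 on the overexpressed arrays, 919.2, 849.4 and 675.7 on the wildtype arrays, and 589.7, 608.4 and 627.5 on the knockdown arrays. The 3 groups were apart, with knockdown between. Overexpressed over wildtype was -0.83 ± 0.13 (limma adjusted p = 0.00300), and knockdown over wildtype was -0.40 ± 0.13 (adjusted p = 0.301). Of the 18 other cadherins, 2 were higher in overexpressing than in wildtype cells, opposite in sign to Cdh2. Cdh6, kidney cadherin, had means of 211.8, 117.8 and 224.7 in overexpressing, wildtype and knockdown cells (0.77 ± 0.19 for overexpressed over wildtype, adjusted p = 0.0292), and Cdh22 had means of 806.3, 572.4 and 742.6 (0.49 ± 0.12, adjusted p = 0.0311). Both calls were lost when any 1 array other than wildtype C was left out of the 6 compared (ranges 0.64 to 0.86 and 0.37 to 0.57). Their knockdown over wildtype values, 0.86 ± 0.19 (adjusted p = 0.16) and 0.37 ± 0.12 (adjusted p = 0.314), did not pass. The 11 measured nectins and relatives of Cadm1 and Alcam gave 0 calls in each contrast. In overexpressed over wildtype, 5.07% and 4.52% of all probe sets were called lower and higher, so few calls would be looked for among 11 genes.

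Among the 20 intracellular partners, Epb41l1, a protein of the 4.1 family that links membrane proteins to spectrin and actin, was highest in overexpressing cells. Its arrays read 1573.2, 1471.3 and 1475.2 in overexpressing, 1043.4, 992.4 and 1117.4 in wildtype and 888.1, 819.2 and 908 in knockdown cells. Its fold changes were 0.51 ± 0.09 for overexpressed over wildtype (adjusted p = 0.00496) and 0.78 ± 0.09 for overexpressed over knockdown (adjusted p = 0.000898). Of its other probe sets, 1421090_at gave 0.47 ± 0.12 (adjusted p = 0.0321) and 1434575_at gave 0.36 ± 0.24 (adjusted p = 0.442) against wildtype. Gap43, a growth cone protein, was lower in overexpressing than in knockdown cells (-0.36 ± 0.10, adjusted p = 0.0462), a call that was lost without any 1 array of the 6 other than knockdown A (range -0.44 to -0.29). The ADAM and shedding list had 13 measured genes. Adam12 was called higher in overexpressing than in wildtype cells (0.62 ± 0.16, limma adjusted p = 0.0361). The call was lost when any 1 of the 6 arrays was left out (range 0.57 to 0.68). Its other probe set, 1421171_at, gave 0.43 ± 0.22 (adjusted p = 0.279). Adam10, which sheds several adhesion molecules, was called higher in overexpressing than in knockdown cells (0.52 ± 0.12, limma adjusted p = 0.0239). This call was lost without overexpressed A or B or any 1 knockdown array (range 0.43 to 0.62). Its other probe sets did not pass against knockdown: 1450104_at gave 0.63 ± 0.24 (adjusted p = 0.144) and 1450105_at gave 0.30 ± 0.16 (adjusted p = 0.303). The Adam23 ligand Lgi1 had means of 352.4, 473.8 and 329.5 in overexpressing, wildtype and knockdown cells, and knockdown over wildtype was -0.50 ± 0.18 (adjusted p = 0.355).

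Tgm2, tissue transglutaminase and a known ligand of Adgrg1, was lower in the overexpressing cells, as was Adgrg1 itself. Its brightest probe set, 1437277_x_at, read 688.6, 733.1 and 519.9 on the overexpressed arrays, 1848.8, 1543.7 and 1353.8 on the wildtype arrays, and 1303.6, 1234.3 and 1404.0 on the knockdown arrays. The overexpressed arrays lay below all others. The values were -1.27 ± 0.15 against wildtype (adjusted p = 0.000780) and -1.02 ± 0.15 against knockdown (adjusted p = 0.00296), and knockdown over wildtype was -0.26 ± 0.15 (adjusted p = 0.559). The 5 other Tgm2 probe sets were also negative against wildtype, from -1.43 ± 0.26 to -0.55 ± 0.29, and 3 of them passed. Tgm2 was the only call among the 10 measured genes of its list. The other adhesion receptors and prominin relatives did not pass, and from so few genes nothing is read. In the polysialic acid and neurexin-neuroligin list of 12, Cntnap2, a neurexin-like protein of axons, was called. It read 169.1, 166.8 and 162.9 on the overexpressed arrays, 275.9, 278.2 and 309.3 on the wildtype arrays, and 362.4, 316.6 and 368.8 on the knockdown arrays. The 3 groups were apart, with overexpressed lowest and knockdown highest. The values were -0.74 ± 0.14 against wildtype (adjusted p = 0.00865), -1.0 ± 0.14 against knockdown (adjusted p = 0.00271) and 0.26 ± 0.14 for knockdown over wildtype (adjusted p = 0.531). Its dimmer probe sets had the opposite sign against wildtype (0.53 ± 0.44 and 0.31 ± 0.47) and did not pass.

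**Figure D5:**
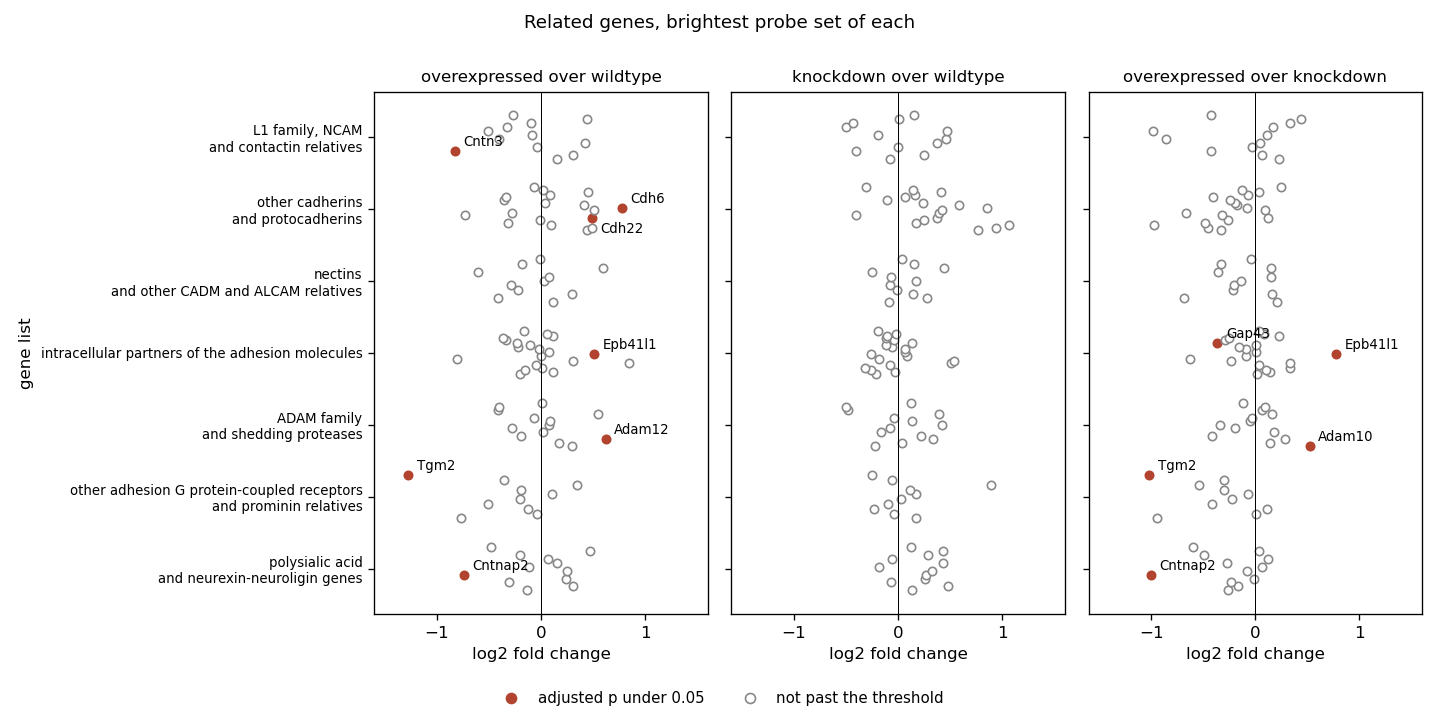
Log2 fold change (horizontal axis) of the brightest probe set of 96 genes related to the members, by list (vertical axis) and contrast; filled, named points passed an adjusted p of 0.05. Tgm2, Cntn3 and Cntnap2 lie lowest among the filled points of overexpressed over wildtype, and knockdown over wildtype has 0 filled points.

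The genes whose pattern over the 9 arrays was most like that of a member were found by the mean absolute difference of log2 values, after each probe set's own mean was subtracted, among 6971 candidates. Only members with group means at least 1 apart on the log2 scale were searched. Candidates were other genes whose brightest probe set was above the median brightness. Adam23 and Adgrg1, at brightness percentiles 46.6 and 48.4, were below that limit, so genes as dim as these were not searched. For Prom1 the closest were Pygl, a glycogen phosphorylase (mean difference 0.17), Bhlhe40, a transcriptional repressor (0.18), and Fxyd7, a regulator of the sodium pump (0.18). For Adam23 they were the aldolase Aldoc (0.18), Fxyd7 (0.30) and Bhlhe40 (0.32), and for Adgrg1 the calmodulin-binding Pcp4 (0.30), the antiviral Rsad2 (0.33) and Fxyd7 (0.34). For Nrcam they were Neurl1a, Padi2 and Cpt1a, each at 0.10. This likeness is a description over arrays that share 3 groups.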

How the data were processed

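Total RNA of 9 arrays was compared. The authors deposited a linear intensity per probe set and array. Software, background correction and scaling: not given in the sources used here. Trimmed of 2% of values at each end, the array means were all 500.2, so the deposited values share a scale. There are no detection calls. The 64 controls among 22690 probe sets were left out.

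Values entered the fit as log2(intensity + 16), a scale on which folds of dim features are understated. All 9 arrays were fitted together, a mean per group, with lmFit and eBayes (trend) of limma 3.58.1 under R 4.3.3. Benjamini-Hochberg adjustment ran over 22626 probe sets per contrast, with calls at adjusted p-values below 0.05. Means are given with the SD of 3 arrays, and the number of arrays limits precision.

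Every member probe set is named. Members and lists were chosen with earlier results of these data known. From each related list, up to 3 calls per direction by fold and the gene with the smallest knockdown over wildtype p could be named. Alternatives were other pseudocounts, a brightness filter, quantile or median scaling, no trend, the letter as a block, only the compared arrays, and leaving out each array.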

Additional observations from a re-analysis of the deposited data

How the results depend on the processing

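Over the alternatives run, the number of members past the threshold was 5 to 7 of 22 for overexpressed over wildtype, 4 or 5 for overexpressed over knockdown and 0 for knockdown over wildtype. The first 2 counts describe contrasts that share arrays with the choice of members, so they say nothing of how firm the differences are. L1cam 1450435_at and Cadm1 1431611_a_at fell short of the threshold against wildtype in 11 and 8 of 14 alternatives, and Adgrg1 1421118_a_at against knockdown in 8. Cdh2 1418815_at was past it against wildtype in 2 of 13, with a pseudocount of 64 and with no trend. The letters A, B and C are not stated to mark a shared batch, and deviations of arrays with the same letter correlated weakly (r = -0.01 to 0.10 over 22626 probe sets). With the letter as a replicate block, 6 members were past the threshold in overexpressed over wildtype, 4 in overexpressed over knockdown and 0 in the remaining contrast. These block counts stand without the array-wide number of calls, so nothing about the members is read from them. Over all probe sets, leaving out wildtype C raised the knockdown over wildtype calls from 3 to 103, and 0 of these were members.

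Some knockdown over wildtype values near 0, none called, changed sign, and the cause was not tested. For Alcam 1426300_at the value was -0.077 with a pseudocount of 1 and -0.060 with quantile normalization, and for Cadm1 1417377_at it was -0.0067 with a common array median. Leaving out 1 array gave -0.026 to 0.78 for Ncam1 1450438_at, -0.10 to 0.010 for Ncam1 1426865_a_at, -0.064 to 0.11 for Cadm1 1417378_at, -0.068 to 0.11 for Cadm1 1417377_at, -0.12 to 0.033 for Cadm1 1417376_a_at and -0.38 to 0.41 for Alcam 1426300_at. Signal limits Chl1, Alcam and the dim Ncam1 probe sets, since the added 16 units shrink differences between dim values.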
